A study of Mus musculus with 4 samples.

Results

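Mitosis and G2/M genes were examined in intestinal stem cells (ISCs) of young and old mice. They were 44 genes chosen by name for their known roles in the entry into mitosis, the spindle, chromosome condensation and segregation, and cell division, and each was read from the row of the count table that carries its name. All 44 were among the 52459 genes listed and among the 13692 that passed the filter on low counts, which asked that the reads exceed 5 and the CPM (the count rescaled so that each pool has the same total) exceed 1 in 1 pool or more. The ISCs came from the small intestine of wild-type female C57/Bl6 mice aged 2 months (group ISC_2mth, young) or 22 months (group ISC_22mth, old). Neither group carried a reporter or another transgene, and the labels give no treatment. They were sorted by the SM6 strategy, which keeps crypt cells that are EPCAM+, EPHB2 high, CD44 high, CD166+, CD24 med and GRP78 low and leaves out cells that carry CD31 or CD45. Each age had 2 replicates, each a pool of cells from 5 animals, so that differences between single animals were not visible. RNA was amplified along the whole transcript by single primer isothermal amplification (SPIA) without molecular identifiers, and the deposited values are raw read counts per gene.

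Cells duplicate their chromosomes in S phase and then prepare for division in G2. Cyclin A and cyclin B bind the kinase Cdk1, whose activation starts mitosis, and destruction of the cyclins by the anaphase promoting complex (APC/C) ends it. Most genes of this programme are transcribed late in the cell cycle, when the MuvB complex with Mybl2 (B-Myb) and Foxm1 acts on their promoters through the cell cycle genes homology region (CHR), often beside CCAAT boxes bound by NF-Y. ISCs at the crypt base are a constantly cycling population, which sets them apart from most adult stem cells. In bulk RNA of this kind a change in the share of cells in G2/M and a change in RNA per cell cannot be told apart.

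The promoters of the members hold the letters of these elements often, and 4 are shown because, among the members described pool by pool, theirs have CHR letters nearest before the start (Ube2c and Bub3 left out, as their windows reach into the GENCODE gene). Promoter windows of 250 bases before to 50 bases after each RefSeq start (build GRCm38.p6) were matched by symbol for 36 of the 44 members. The 8 others were Aurkb, Ccna2, Cdc25c, Foxm1, Incenp, Kif20a, Smc4 and Tpx2. The letters TTTGAA or TTCGAA were counted as CHR letters and CCAAT as a CCAAT box, each on both strands, so that TTCAAA and ATTGG are the same elements read from the other strand. The 150 bases before the start are printed 5′ to 3′ on the gene's strand for Cdk1 (chr10:69352913-69353062, - strand), Kif11 (chr19:37376232-37376381, + strand), Top2a (chr11:99024190-99024339, - strand) and Mki67 (chr7:135716380-135716529, - strand), with the CHR and CCAAT letters in capitals.
Cdk1: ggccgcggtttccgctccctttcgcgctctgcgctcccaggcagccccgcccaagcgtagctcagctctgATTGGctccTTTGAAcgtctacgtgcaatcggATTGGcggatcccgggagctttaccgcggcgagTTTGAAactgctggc
Kif11: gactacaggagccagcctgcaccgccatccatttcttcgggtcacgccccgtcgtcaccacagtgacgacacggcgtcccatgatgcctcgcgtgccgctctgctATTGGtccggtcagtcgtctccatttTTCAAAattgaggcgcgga
Top2a: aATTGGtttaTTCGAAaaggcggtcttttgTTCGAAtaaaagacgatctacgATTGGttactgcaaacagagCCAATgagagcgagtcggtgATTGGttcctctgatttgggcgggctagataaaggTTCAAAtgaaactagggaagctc
Mki67: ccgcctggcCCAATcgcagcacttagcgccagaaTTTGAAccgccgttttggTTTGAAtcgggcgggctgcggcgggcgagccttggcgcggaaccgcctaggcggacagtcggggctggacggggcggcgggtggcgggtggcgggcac
In Cdk1, the kinase that drives entry into mitosis, 9 bases lay between the last CHR letters and the start, and the printed bases held 2 CHR and 2 CCAAT matches. The GENCODE model of Cdk1 starts 26 bases further upstream, within the printed window. The kinesin gene Kif11 had 1 match of each kind in the printed bases, with 13 bases between the CHR letters and the start. In Top2a, the topoisomerase that untangles sister chromatids, 17 bases lay between the last of 3 printed CHR matches and the start, and 4 CCAAT matches were printed. The marker gene Mki67 had 2 CHR matches, the nearer one 92 bases from the start, and 1 CCAAT match in the printed bases.

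CHR letters were found in the windows of 29 of the 36 matched members (80.6%), against 16.9% of the 9438 tested genes that were matched and 21.7% of all 27025 genes with a promoter window. CCAAT letters were found in 27 members (75%), against 43.1% of the tested genes and 41.1% of all genes. Both were present in 25 members (69.4%), against 7.12% of the tested genes and 8.61% of all genes. Of 104 matched mitosis and G2/M genes outside the 44, 50% held CHR letters and 33.7% held both. Of 35 matched S phase genes, which act in DNA replication, 22.9% held CHR letters and 14.3% held both, while 65.7% held CCAAT letters. In 26 members the centre of the nearest CHR match lay within 50 bases of the start, and 18 members had 2 or more CCAAT matches in a window. Only 1 CHR match overlapped a CCAAT match. Such matches describe the letters in these windows and do not show binding, and 3 members had 2 windows each, which were counted as 1 gene.

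**Figure D1:**
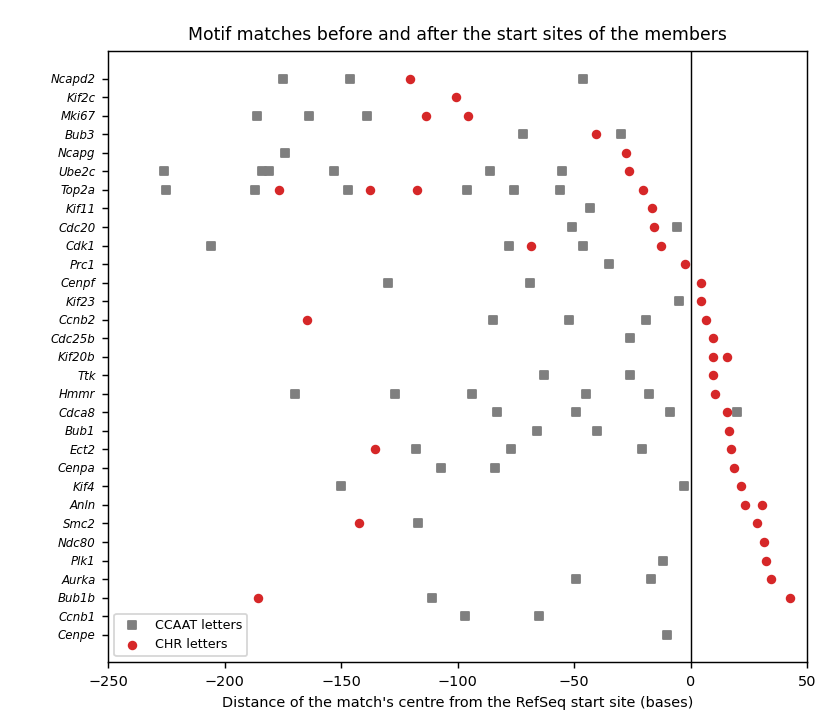
Position of CHR letters (red circles) and CCAAT letters (grey squares) in the promoter windows of the 31 members that held either, as the distance in bases of the centre of each match from the RefSeq start (1 window per gene, negative values before the start). The red circles gather within 50 bases on both sides of the start, and the grey squares lie mostly before it. The 5 matched members with neither element are not shown.

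These genes were well expressed in both ages. Per kilobase of exon, Mki67, whose protein coats mitotic chromosomes and is the standard marker of cycling cells, had the highest level of all members, with a mean of 97.8 CPM per kb, at the 99.5th percentile of the 13236 tested genes with a known length. The cyclin gene Ccnb2 followed with 59.9 CPM per kb, Ube2c, which encodes the ubiquitin-conjugating enzyme of the APC/C, with 47.4, Top2a with 46.1 and Smc4, a core subunit of condensin, with 43.1. At the other end were Mybl2 with 1.06 CPM per kb (30th percentile), Kif20a with 1.95 and Cdc25c with 2.00. The level of Mki67 was 91.9 times that of Mybl2. Of the 44 members, 41 lay above the 50th percentile of these genes and 13 above the 90th, and the median member was at percentile 86.3. Neighbours in this order were often close: Ube2c, Top2a and Smc4 differed by less than the spread of each over the 4 pools.

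Together the members took 1.16% and 1.17% of the counts outside mitochondrially encoded genes in the young pools, replicates 1 and 2, and 1.14% and 1.24% in the old pools. Their summed counts were 50654 and 53818 in the young pools and 47726 and 47804 in the old pools. After TMM normalization, their summed CPM were 3489 and 3560 in the young pools and 3606 and 3909 in the old pools. Mki67 supplied between 25.8% and 27.9% of the members' counts in each pool. To weigh each member equally, the log2 level of each was set against its own mean over the 4 pools. The median of these values over the members was -0.014 and -0.00075 in the young pools and -0.046 and 0.058 in the old pools. Thus the old pools held both the lowest and the highest median, and the young pools lay between them.

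**Figure D2:**
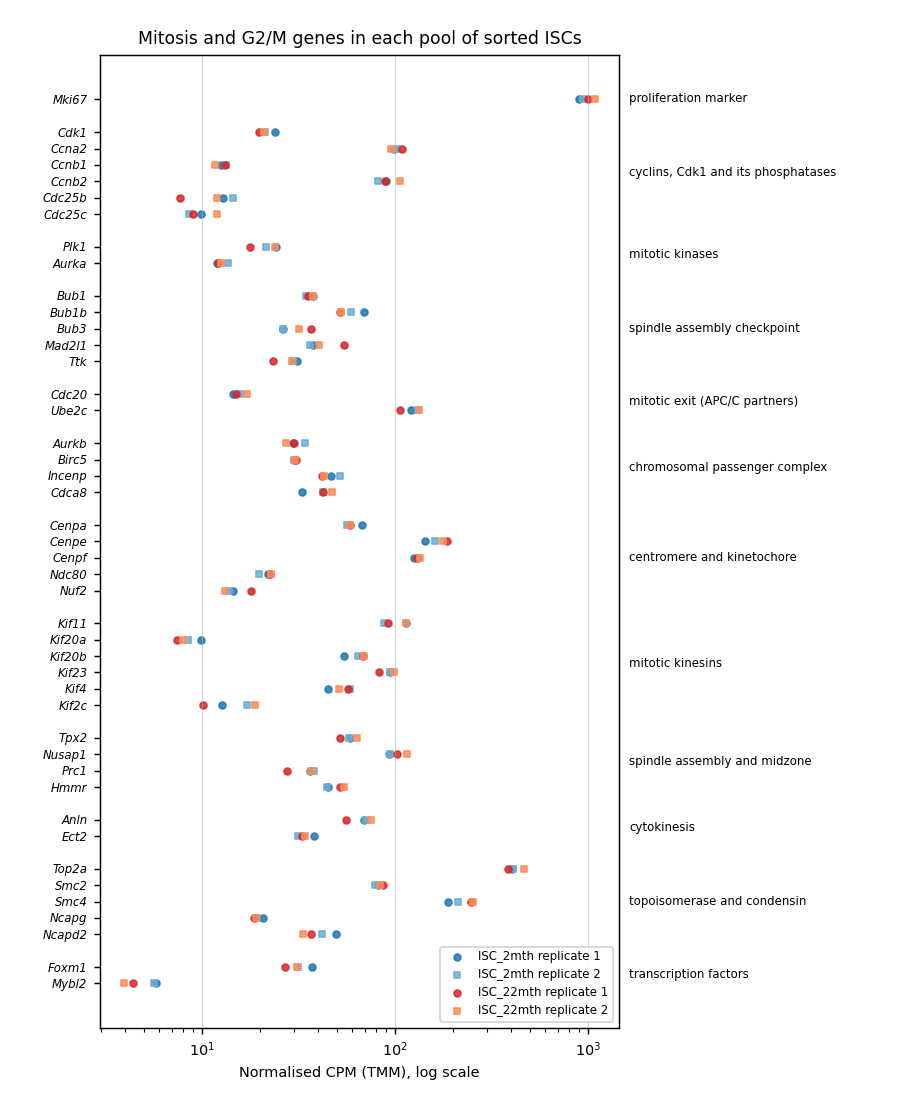
TMM-normalised CPM of the 44 members (rows, grouped by role) in each of the 4 pools on a log axis. Blue marks are ISC_2mth and red or orange marks ISC_22mth, circles replicate 1 and squares replicate 2. Levels spread from about those of Mybl2 (3.93 to 5.79 CPM) to those of Mki67 (900.2 to 1090 CPM), and the 4 marks of a gene lie close together on this scale.

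The comparison asked whether expression of the mitotic programme differed between young and old ISCs. None of the 44 members differed between ages at a false discovery rate (FDR) under 0.05 in edgeR's quasi-likelihood test with Benjamini-Hochberg adjustment over all 13692 genes, where 2.26% of all genes tested were called (1.63% higher and 0.628% lower in old ISCs). At an unadjusted p under 0.05 there were 7 members (15.9%), against 16.9% of all genes tested. Of these, 4 were higher in old ISCs (background 9.26%) and 3 were lower (background 7.65%). The other tools run also called 0 members. These were limma voom with sample quality weights (2.34% of all genes called) and without them (2.22%), edgeR's likelihood ratio test (4.46%) and DESeq2 (1.44%). At an unadjusted p under 0.05, voom had 8 members (18.2%) with and without weights, against 16.1% and 16.3% of all genes. The likelihood ratio test had 6 (13.6%, against 18.1%) and DESeq2 5 (11.4%, against 10.2%). A fit with the replicate number as a block called 0 as well (4.56%). Fitted log2 fold changes (old over young) were above 0 for 22 members and below 0 for 22, with a median of -0.0011, against -0.0049 over all genes tested. They ran from -0.47 in Cdc25b to 0.38 in Bub3. Scaling by total counts in place of TMM moved the median of all genes to -0.49 and that of the members to -0.49, and relative to all genes the members then stood at 0.0027. On that scale 30 members were called, all lower in old ISCs, where 33.8% of all genes were called and 33.1% were called lower.

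The data limited how large a difference on the TMM scale could have gone unseen. The bounds given here do not cover scaling by total counts. Standard errors of the members' log2 fold changes had a median of 0.14 (from 0.099 to 0.28), against 0.24 over all genes tested. The 95% interval of the fold change lay within 2-fold in either direction for 43 of the 44 members, against 62.0% of all genes tested, and within 1.5-fold for 37. The exception at 2-fold was Mybl2, with an interval on the log2 scale from -1.03 to 0.12. The pools of the 2 ages did not overlap in 22 members, 12 of them with the higher values in old and 10 in young ISCs, and the background of such genes was 47.6% (24% higher and 23.6% lower). The median absolute difference of the members between the 2 young pools was 0.13 on the log2 scale, between the 2 old pools 0.15, and between the ages 0.14. In 13 members the difference between ages was larger than both differences between replicate pools (29.5%, against 39.7% of all genes tested). With 2 pools per age, an exact permutation test of a single gene cannot go below p = 0.33, so the tests rest on the spread shared across genes, and the p-values measure the spread between these pools.

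**Figure D3:**
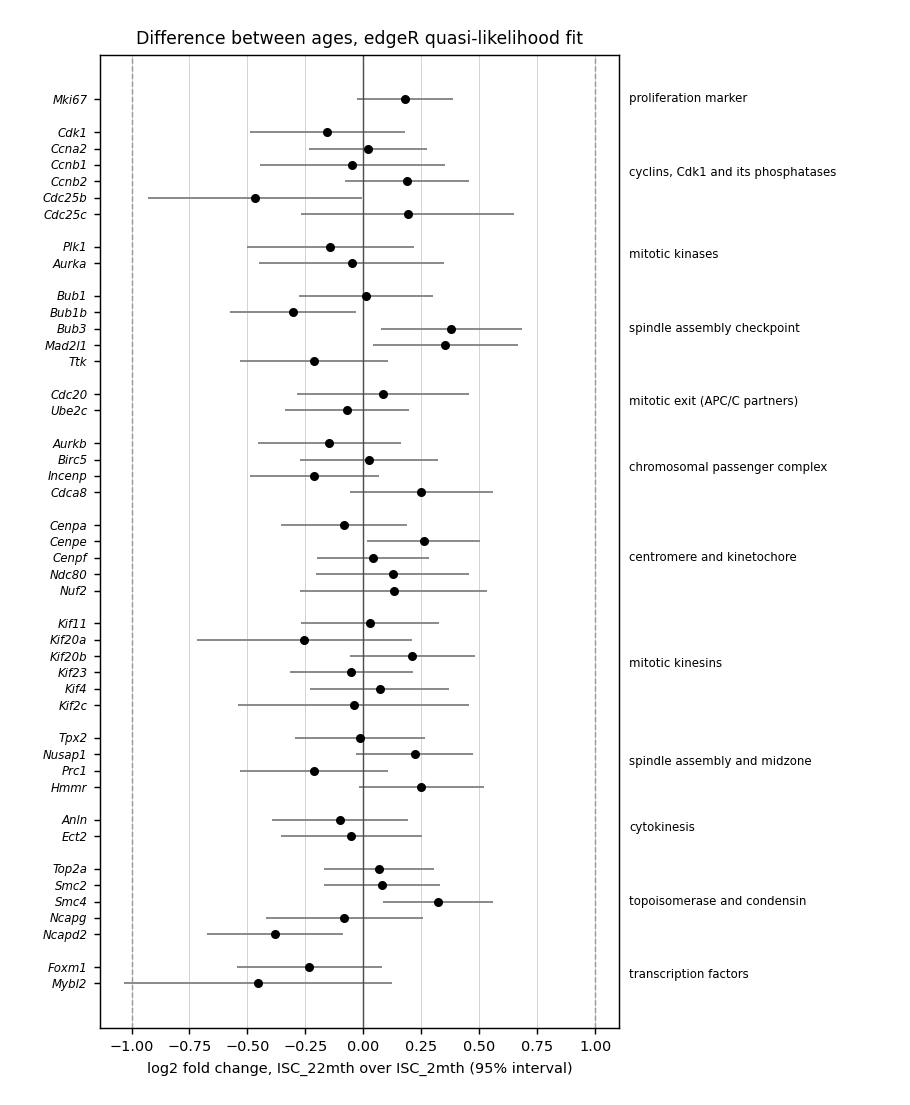
Fitted log2 fold change of each member, ISC_22mth over ISC_2mth, with its 95% interval from edgeR's quasi-likelihood fit (points and bars, rows grouped by role). Dashed lines mark 2-fold. Points lie on both sides of 0 in most roles, and the bars of 7 members do not cross 0 before adjustment for the number of genes tested.

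Mki67 was counted 13068 and 14311 times in the young pools and 13248 and 13329 times in the old pools. After normalization these were 900.2 and 946.8 CPM (923 ± 32.9, mean ± SD, n = 2) and 1001 and 1090 CPM (1045 ± 63.0, n = 2). Both old pools were above both young pools, and the fitted log2 fold change was 0.18 ± 0.099 (SE), a fold of 1.13 (95% interval 0.98 to 1.31), with FDR 0.38 in the edgeR test. Its sign turned under scaling by total counts, as given further down.

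The cyclins, Cdk1 and its activating phosphatases were a group of 6 with 3 fitted higher and 3 lower in old ISCs. Cdk1 had 24.0 and 21.2 CPM in the young pools and 19.6 and 20.9 CPM in the old pools. All 4 values lay within a narrow range, with the old pools just below the young ones (log2 fold change -0.16 ± 0.16 SE, FDR 0.67 by edgeR). Leaving out ISC_2mth replicate 1 gave -0.066 for Cdk1, and leaving out ISC_2mth replicate 2 gave -0.24. Ccna2, the A-type cyclin of S phase and G2, had 98.2 and 102.3 CPM in young and 108.3 and 95.2 CPM in old ISCs, and the old pools enclosed the young ones. Ccnb1, the B-type cyclin that partners Cdk1 at mitotic entry, had 12.5 and 13.3 CPM in young and 13.2 and 11.7 CPM in old ISCs, which overlapped. Of the 50-nt stretches of Ccnb1 transcripts, 23.4% also occurred in other genes, its pseudogene Ccnb1-ps first, and 11.4% of those of Ccna2 were shared with the opposite-strand gene Exosc9, so that both counts are uncertain. Ccnb2 had between 81.6 and 106.2 CPM over the 4 pools, with a log2 fold change of 0.19.

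Cdc25b, a phosphatase that removes the inhibitory phosphates from Cdk1, had the most negative fitted change of the members. It was counted 186 and 218 times in the young pools and 102 and 147 times in the old pools, or 12.8 and 14.4 CPM against 7.71 and 12.0 CPM. The old pools lay below the young ones but differed from each other by more than old replicate 2 differed from young replicate 1 (log2 fold change -0.47 ± 0.22 SE, FDR 0.29 by edgeR). Without ISC_22mth replicate 2 the change was -0.82 with FDR 0.029, in a fit that called 5.22% of all genes (1.71% lower), and without ISC_22mth replicate 1 it was -0.18 with FDR 0.76. Cdc25c, the related phosphatase, had between 8.53 and 12.0 CPM with no separation of the ages, and 11.9% of its 50-nt stretches occurred in other genes.

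Both mitotic kinases were fitted slightly lower in old ISCs. Plk1, which acts on centrosomes, kinetochores and the division plane, had 24.2 and 21.6 CPM in young and 17.7 and 23.9 CPM in old ISCs. Old replicate 2 lay among the young pools, and only old replicate 1 was below them (log2 fold change -0.14 ± 0.17 SE, FDR 0.73 by edgeR). Aurka, the kinase of centrosome maturation, had between 11.9 and 13.6 CPM in all 4 pools and a log2 fold change of -0.051.

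The spindle assembly checkpoint, which holds anaphase back until all chromosomes are attached, was the role with the most members at an unadjusted p under 0.05, 3 of 5 (16.9% of all genes tested), and they did not share a direction. Bub3, which carries checkpoint kinases to the kinetochore, had 26.3 and 26.2 CPM in the young pools and 36.6 and 31.7 CPM in the old pools. Both old pools were above the young ones, which were nearly equal to each other (log2 fold change 0.38 ± 0.15 SE, fold 1.30, FDR 0.19 by edgeR). Mad2l1, which inhibits the APC/C activator Cdc20 and is shown because its p was low, a choice made after its values were seen, had 37.6 and 36.4 CPM in young and 54.3 and 40.1 CPM in old ISCs. Here old replicate 1 stood far above the other 3 pools (log2 fold change 0.35 ± 0.15 SE, FDR 0.23 by edgeR). Without ISC_22mth replicate 2 its change was 0.56 with FDR 0.011, and without ISC_22mth replicate 1 it was 0.12.

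Bub1b (BubR1), the kinase-like inhibitor that binds the APC/C together with Bub3 and Mad2, was fitted lower in old ISCs. It was counted 1005 and 898 times in the young pools and 689 and 639 times in the old pools, or 69.2 and 59.4 CPM against 52.1 and 52.3 CPM. The old pools were nearly equal and below both young pools (log2 fold change -0.30 ± 0.13 SE, fold 0.81, FDR 0.24 by edgeR). Bub1, the checkpoint kinase, had between 34.6 and 37.6 CPM in all 4 pools, with a log2 fold change of 0.012. Ttk (Mps1), the kinase at the top of the checkpoint, had between 23.3 and 30.9 CPM, with a log2 fold change of -0.21.

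Of the partners of the APC/C, Ube2c had 120.8 and 131.4 CPM in young and 106.6 and 133.7 CPM in old ISCs, and the old pools enclosed the young ones (log2 fold change -0.070 ± 0.13 SE, FDR 0.83 by edgeR). Its exons overlap the opposite-strand gene Tnnc2, and 16.0% of its 50-nt stretches occurred in other genes. Cdc20 had between 14.5 and 17.1 CPM and a log2 fold change of 0.084.

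In the chromosomal passenger complex, which corrects faulty attachments and later marks the division plane, 2 of 4 subunits were fitted higher and 2 lower. The scaffold gene Incenp had 46.5 and 52.1 CPM in young and 42.1 and 43.1 CPM in old ISCs. The old pools were both below the young ones (log2 fold change -0.21 ± 0.13 SE, FDR 0.45 by edgeR). Cdca8 (borealin) had 32.9 and 42.3 CPM in young and 42.5 and 47.1 CPM in old ISCs. Young replicate 1 was the low pool here, and young replicate 2 and old replicate 1 were nearly equal (log2 fold change 0.25 ± 0.15 SE, FDR 0.41 by edgeR). Without ISC_2mth replicate 1 the change was 0.081, and without ISC_2mth replicate 2 it was 0.44. The kinase gene Aurkb (log2 fold change -0.15) and Birc5 (survivin, 0.024) had between 27.3 and 34.0 CPM in the 4 pools.

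Of the 5 centromere and kinetochore genes, 4 were fitted higher in old ISCs. Cenpe, the kinesin that carries chromosomes to the spindle equator, had 143.4 and 160.2 CPM in young and 185.4 and 178.1 CPM in old ISCs. Old pools lay above young pools throughout (log2 fold change 0.26 ± 0.12 SE, fold 1.20, FDR 0.26 by edgeR). The change with offsets for GC content and length was smaller, as the plot of fold change against GC content shows. Cenpf, of the outer kinetochore, had between 126.1 and 134.4 CPM in all 4 pools (log2 fold change 0.041), Cenpa, the histone H3 variant of centromeres, between 56.4 and 67.2 CPM (-0.084). Ndc80 and Nuf2, which form the microtubule-binding complex, had log2 fold changes of 0.13 each, with the ages overlapping in Nuf2.

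Among the 6 mitotic kinesins, 3 were fitted higher and 3 lower. Kif11 (Eg5), which pushes the spindle poles apart, had 114.3 and 87.5 CPM in young and 92.2 and 113.8 CPM in old ISCs. Young replicate 1 and old replicate 2 were nearly equal, as were young replicate 2 and old replicate 1 (log2 fold change 0.030 ± 0.14 SE, FDR 0.94 by edgeR). Kif20b, which acts in cytokinesis, had 54.1 and 64.4 CPM in young and 67.9 and 69.4 CPM in old ISCs, with young replicate 1 the low pool (log2 fold change 0.21 ± 0.13 SE, FDR 0.43 by edgeR). Its change was 0.092 without ISC_2mth replicate 1 and 0.34 without ISC_2mth replicate 2. Kif23 of the central spindle (-0.052), Kif4 (0.070) and the microtubule depolymerase Kif2c (-0.041) lay close to 0, although Kif2c ranged from 10.1 to 18.9 CPM between the old pools. Kif20a had a log2 fold change of -0.25 at between 7.40 and 9.92 CPM, and 25.2% of its 50-nt stretches were shared with Cdc23, whose exons overlap it on the opposite strand over 1271 bases. In Kif4, 14.5% were shared, mostly with Pdzd11.

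The spindle assembly and midzone genes included Nusap1, which bundles microtubules near chromosomes, with 93.1 and 94.4 CPM in young and 102.7 and 116.0 CPM in old ISCs. Higher values were seen in both old pools (log2 fold change 0.22 ± 0.12 SE, FDR 0.37 by edgeR). Leaving out ISC_22mth replicate 2 gave 0.13 for Nusap1, and leaving out ISC_22mth replicate 1 gave 0.31. Hmmr, a spindle-associated protein, had 44.8 and 44.7 CPM in young and 51.9 and 54.5 CPM in old ISCs, again with both old pools above (log2 fold change 0.25 ± 0.13 SE, FDR 0.34 by edgeR). Prc1, which cross-links microtubules of the midzone, had a log2 fold change of -0.21, and 27.6 CPM in old replicate 1 against 36.3 to 38.2 CPM in the other 3 pools. Tpx2, the activator of Aurka, was at -0.014.

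In cytokinesis, Anln (anillin), the scaffold of the contractile ring, had 69.2 and 70.8 CPM in young and 55.9 and 74.8 CPM in old ISCs. The old pools enclosed the young ones, with old replicate 1 the low pool (log2 fold change -0.10 ± 0.14 SE, FDR 0.77 by edgeR). Ect2, which activates RhoA at the division plane, had a log2 fold change of -0.053.

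Top2a was counted 5875 and 6166 times in young and 5103 and 5690 times in old ISCs, or 404.7 and 407.9 CPM against 385.5 and 465.3 CPM. The old pools enclosed the young ones (log2 fold change 0.066 ± 0.11 SE, FDR 0.82 by edgeR). Of the condensin subunits, which shape the chromosome with it, 2 were fitted higher and 2 lower, and none passed the test. Smc4 had the lowest p of all members, with 187.4 and 211.7 CPM in young and 246.3 and 252.3 CPM in old ISCs. Both old pools were above the young ones, and close to each other (log2 fold change 0.32 ± 0.11 SE, fold 1.25, FDR 0.15 by edgeR). The FDR of Smc4 was 0.083 by voom with sample quality weights, 0.17 by the likelihood ratio test and 0.21 by DESeq2. With offsets for GC content and length the change was 0.21. Ncapd2, a subunit of condensin I also described for its low p after its values were seen, had 49.6 and 41.9 CPM in young and 36.6 and 33.5 CPM in old ISCs. Each old pool was below each young pool (log2 fold change -0.38 ± 0.14 SE, fold 0.77, FDR 0.17 by edgeR). Smc2, the other core subunit, was at 0.081, and Ncapg of condensin I was at -0.082.

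Both transcription factors of the programme were fitted lower in old ISCs and neither passed the test. Foxm1 had 37.1 and 31.3 CPM in young and 27.0 and 31.1 CPM in old ISCs. Young replicate 2 and old replicate 2 were nearly equal (log2 fold change -0.23 ± 0.15 SE, FDR 0.45 by edgeR). The change of Foxm1 was -0.11 without ISC_2mth replicate 1 and -0.35 without ISC_2mth replicate 2. Mybl2 was counted 84 and 85 times in young and 58 and 48 times in old ISCs, or 5.79 and 5.62 CPM against 4.38 and 3.93 CPM. The old values were both below the young ones, at the lowest counts of any member (log2 fold change -0.46 ± 0.28 SE, FDR 0.43 by edgeR). Of the 50-nt stretches of Mybl2, 19.3% occurred in other genes.

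GC content moved with these differences. The GC content of the longest transcript ran from 34.8% to 56.3% over the members. Across the 44 members, which share the same 4 libraries and are not independent, log2 fold change and GC content had a Pearson correlation of -0.54 and a Spearman correlation of -0.53. Of the 22 members with the lower GC content, 15 were fitted higher in old ISCs (median 0.054), and of the 22 with the higher GC content 7 were (median -0.077). Over the 13236 tested genes with a known GC content the correlations were -0.16 and -0.23. With offsets for GC content and exonic length in each library they were -0.018 and -0.034 over these genes and -0.33 for both measures over the members. In that fit 2 members (4.55%) had an unadjusted p under 0.05, Bub3 (0.39) and Bub1b (-0.30), against 13.9% of all genes, 0 had an FDR under 0.05 (lowest 0.21; background 1.4%) and the members' median was -0.045. The changes of Cenpe and Ncapd2 were 0.21 and -0.27 with the offsets. Those of Smc4 (0.21), Nusap1 (0.087), Hmmr (0.14), Kif20b (0.13), Foxm1 (-0.12) and Incenp (-0.13) were each smaller by more than 1.5 times than with TMM alone. The part of GC content in the members' differences was not otherwise tested.

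**Figure D4:**
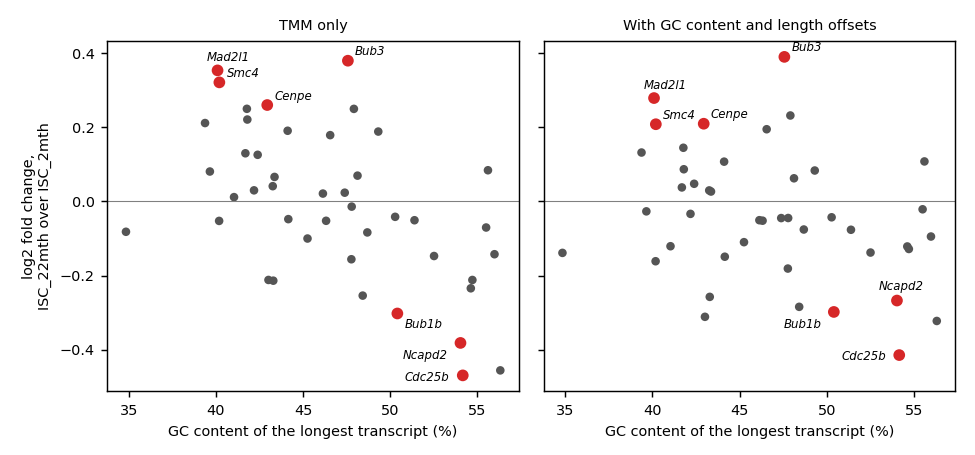
Log2 fold change of the 44 members, ISC_22mth over ISC_2mth, against the GC content of the longest transcript in percent, with TMM alone (left) and with GC content and length offsets (right). Large red points are the 7 members with an unadjusted p under 0.05 with TMM alone. The points fall from left to right in the first panel (Pearson -0.54) and less so in the second (-0.33).

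The wider programme gave a similar account. Of 122 other mitosis and G2/M genes, all tested, 0 had an FDR under 0.05 by edgeR's quasi-likelihood test, by voom with or without weights, by the likelihood ratio test or by DESeq2, and 13 (10.7%) had an unadjusted p under 0.05 (7 up and 6 down with age before adjustment), against 16.9% of all genes tested. The log2 fold changes of the 122 had a median of -0.018 and ran from -0.80 to 0.75. In each of its 7 groups the gene of lowest p was as follows. Among kinases and cyclin partners (12 genes) it was the kinase gene Pbk (0.23, FDR 0.43), and among kinetochore and centromere genes (36) it was Cenpq (0.75, FDR 0.11). For spindle and kinesin genes (20) it was Ckap2l (0.34, FDR 0.22), and for condensin, cohesin release and chromosome genes (9) Espl1, the protease separase that cuts cohesin (-0.40, FDR 0.27). Cit, the citron kinase of cytokinesis (9 genes), stood at -0.42 with FDR 0.084. Of the APC/C (17 genes) it was its inhibitor Fbxo5 (0.58, FDR 0.19), and of the MuvB, DREAM, NF-Y and E2F regulators (19) it was E2f2 (-0.51, FDR 0.12), all by edgeR.

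S phase genes, the neighbouring stretch of the cell cycle, were 43, of which 42 passed the filter and Fen1 did not. Of these 1 was called, against 2.26% of all genes tested: Rpa3, a subunit of the single-strand DNA binding protein RPA. Rpa3 was counted 108 and 120 times in young and 196 and 172 times in old ISCs (log2 fold change 0.91 ± 0.20 SE, FDR 0.022 by edgeR), and both old pools were above the young ones. No S phase gene was called higher with total counts, and none was called by DESeq2, with the GC content and length offsets or without ISC_2mth replicate 1. The median over the 42 was 0.063, and 7 (16.7%) had an unadjusted p under 0.05.

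**Figure D5:**
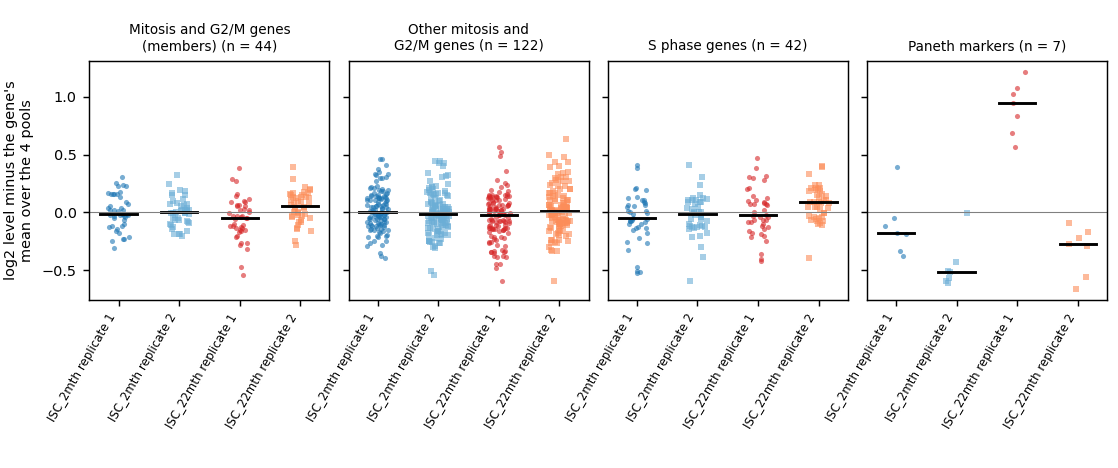
Log2 level of each gene (CPM + 0.5) minus its own mean over the 4 pools, for the 44 members, 122 other mitosis and G2/M genes, 42 S phase genes and 7 Paneth markers, with a black line at the median of each pool. For the members the medians lie between -0.046 and 0.058, while the Paneth markers are high in ISC_22mth replicate 1.

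Total counts were between 11662654 and 15975698 per pool. Mitochondrially encoded genes took 62.6% and 65.7% of the counts in young and 73.8% and 72.9% in old pools, which left between 3852178 and 4593004 counts. A gene with 3 counts had between 0.20 and 0.25 CPM, and the members had between 48 and 14311 counts in each pool. Counts cover reads after amplification and are not independent molecules. Of 9 ISC markers, all were tested and 0 were called, Axin2 having the lowest p (-0.46, FDR 0.051). At an unadjusted p under 0.05 in edgeR's test were 6 of them (66.7%, against 16.9% of all genes tested), 2 higher and 4 lower in old ISCs. Their summed CPM, which weighs the abundant markers most, lay between 2704 and 2913. Of 6 genes of the sort antigens, Cd24a was called (0.68, FDR 0.0035), 2 were fitted lower, and the lowest was Ephb2 (-0.52, FDR 0.058). Of 8 Paneth markers 7 were tested and 2 were called, Defa17 and Defa24, and their summed CPM were 934 and 719 in young and 2072 and 804 in old pools, so that ISC_22mth replicate 1 stood apart. Lyz2 is on both the Paneth and the leukocyte list. Of 8 enterocyte markers 3 were called higher, Fabp1, Sis and Fabp2, with summed CPM of 491 and 631 in young and 990 and 905 in old pools. Of 14 leukocyte genes 2 were tested, of which Itgam was called higher (0.78, FDR 0.030) and Cd68 stood at -0.79 (FDR 0.32), while Cd3g, Cd79a, Adgre1, Itgax, S100a8 and S100a9 were at 0 in all pools. The summed CPM of the list was 15.0 and 16.1 in young and 23.3 and 23.0 in old pools. Itgam supplied 148 and 196 of the list's 218 and 244 counts in young and 254 and 252 of its 308 and 281 counts in old pools. The endothelial markers Cdh5 and Kdr and the fibroblast markers Col1a2, Col3a1 and Pdgfra were at 0 in all pools, and 0 markers of these cells passed the filter. Of 6 tuft markers 3 were tested and Dclk1 was called higher, with summed CPM of the list between 3.03 and 8.99, and of 8 goblet and 8 enteroendocrine markers 0 were called (summed CPM of goblet markers 1945 to 2655, and of enteroendocrine markers 28.0 and 130.1 in young and 115.4 and 80.2 in old pools, with ISC_2mth replicate 1 the low pool), with the lowest p in Spink4 (0.19, FDR 0.59) and Gip (1.71, FDR 0.10). At an unadjusted p under 0.05 were 5 of 7 Paneth and 6 of 8 enterocyte genes, all higher in old ISCs, 2 of 7 enteroendocrine genes and 0 goblet genes, against 16.9% of all genes tested. Without ISC_2mth replicate 1, the low pool in enteroendocrine markers, the members' median log2 fold change was 0.0021. Without ISC_22mth replicate 1, which stood apart in Paneth markers, 0 members were called (background 4.8%) and the members' median log2 fold change was 0.061. The part of these other cell types in the members' levels was not tested.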

How the data were processed

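RNA of sorted ISCs was sequenced as single-end reads from 2 pools per age. The authors trimmed the reads with Trimmomatic (version 0.30), aligned them with STAR (version 2.4.2a) to the GRCm38 primary assembly and counted reads in exons of GENCODE vM15 genes with featureCounts, and deposited raw counts per gene, neither normalized nor filtered. The strand setting and the handling of reads with several alignments are not given in the sources used here, so reads of a gene and of an overlapping gene on the opposite strand may not be separated.

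Groups came from the sample labels. The members, gene lists and tests were chosen with earlier results of these data known. The filter kept genes that exceeded both 5 reads and 1 CPM in 1 pool or more. Ages were compared with edgeR 4.0.16 (R 4.3.3; TMM, glmQLFit and glmQLFTest, two-sided, no covariate) with Benjamini-Hochberg adjustment over all genes kept and a threshold of FDR 0.05. Standard errors and 95% intervals came from the same fit. The common biological coefficient of variation was 0.14. Alternatives were the tests of the study's methods, which are voom with sample quality weights (limma 3.58.1) and the likelihood ratio test of edgeR. Run anew here, these need not call the same genes as the study's own fits. Also run were DESeq2 1.42.0, other scalings and filters, offsets from lowess fits (span 0.3, 3 iterations) on GC content and exonic length, a replicate block, and each pool left out. The fits were also run on counts simulated with known fold changes, the outcome of which is not given here.

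The labels give 2 replicates per age. Their counts differed by more than counting noise (mean chi-square of 9.42 across 15267 genes in young and of 7.11 across 14490 in old ISCs), so they were not 1 library deposited again. The counts alone do not tell separate pools from separate amplifications, but the study describes a separate pool of 5 animals for each replicate. Positions, lengths and GC content were those of GENCODE vM21 on GRCm38 and were found by symbol for all 44 members. Transcripts were compared with those of other genes by exact 50-nt matches on either strand. Levels of every pool were printed for Mki67, Cdk1, Ccnb1, Top2a, Foxm1 and Mybl2, and in each role for the member of lowest p and that of highest mean CPM. Mad2l1 and Ncapd2 were added after their values were seen, and the values of Ephb2 and Cd68 likewise. Other lists name genes under the FDR threshold, at most 5, or else the gene of lowest p, and marker lists also those at 0 in all pools, except 1 gene that is not reported here. Promoters were printed for the named members with CHR letters nearest before the start, at most 4, none on chromosome 18, leaving out Ube2c and Bub3, where more than 30 printed bases lie inside the GENCODE gene.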

Additional observations from a re-analysis of the deposited data

How the results depend on the processing

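Over 16 alternatives, 0 members were called in 14. Scaling by total counts called 30 members, all lower in old ISCs, where 33.8% of all genes were called (33.1% lower), and leaving out each pool in turn gave between 0 and 2 members, the 2 without ISC_22mth replicate 2 being Mad2l1 and Cdc25b in a fit that called 5.22% of all genes. The pool left alone in its age was then assumed to vary like the others. The members' median log2 fold change was -0.49 with total counts and between -0.072 and 0.061 with a pool left out, the lowest without ISC_22mth replicate 2 and the highest without ISC_22mth replicate 1. With total counts, 0 members were fitted higher and 44 lower. Among the members whose pool levels were named by the rule, this turned the sign of Mki67 (-0.31), Ccna2 (-0.47), Bub3 (-0.11), Cdca8 (-0.23), Cenpe (-0.23), Kif11 (-0.47), Kif20b (-0.27), Nusap1 (-0.27), Hmmr (-0.24), Top2a (-0.42) and Smc4 (-0.17), by the shift of all genes given above. Ccna2 was also below 0 with at least 10 counts in every pool (-0.00084) and with GC content and length offsets (-0.051), as was Kif11 with the offsets (-0.034). With a pool left out, the sign changed in 18 of the 44 members. Those named by the rule were Ccna2 (-0.074 to 0.11), Ccnb1 (-0.14 to 0.039), Plk1 (-0.37 to 0.062), Ube2c (-0.24 to 0.086), Kif11 (-0.15 to 0.24), Anln (-0.32 to 0.097) and Top2a (-0.074 to 0.20). The cause of these changes was not tested.

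Calls over all genes, 309 in the report, were 611 by the likelihood ratio test, 197 by DESeq2, 4632 with total counts (96 higher, 4536 lower), 554 with no filter, 192 with the offsets and between 151 and 710 with a pool left out. Of the other mitosis and G2/M genes, 58 were called with total counts and between 0 and 4 with a pool left out: Cit, Sgo1, Ckap2l and Fbxo5 without ISC_22mth replicate 1, and 3 without ISC_22mth replicate 2 (Cenpq, Spc25 and Cdc23). S phase calls were 2 by voom with sample quality weights, by the likelihood ratio test and with no filter, 0 by DESeq2 and with the offsets, 16 with total counts (all lower, Rpa3 not among them) and between 0 and 2 with a pool left out.

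Same-numbered pools of the 2 ages came from different animals, so the numbers did not pair animals. Their deviations had a correlation of -0.0031. With 2 pools per age this cannot settle whether same-numbered pools shared handling, which was not tested. A fit with the replicate number as a block called 0 members, 624 of all genes and 2 S phase genes. Depth limited Mybl2 most, with between 48 and 85 counts in each pool.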
